A study of Mus musculus with 20 samples.

Results

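The miR-23/24/27 clusters are a pair of paralogous miRNA loci, and 10 of their mature forms were named in the deposited tables and are described here, among 1481 features in all. The members were taken by name: the 3p forms mmu-miR-23a-3p, mmu-miR-23b-3p, mmu-miR-24-3p, mmu-miR-27a-3p and mmu-miR-27b-3p, and the 5p forms mmu-miR-23b-5p, mmu-miR-24-1-5p, mmu-miR-24-2-5p, mmu-miR-27a-5p and mmu-miR-27b-5p, written below without the mouse prefix mmu. All 10 were present, and 8 of them had at least 1 read in every library. Small RNA was sequenced from primary neurons of the cortex of E15 mouse embryos (day 15), cultured for 7 days and then kept for 12 h in normoxia or in oxygen-glucose deprivation (OGD), a dish model of ischaemia. Normoxic medium held 25 mM glucose and 0.2 mM pyruvate, with 5% CO2 at 37 °C. OGD medium had no added glucose or pyruvate, and the chamber held 1% O2 and 5% CO2 at 37 °C. Neurons were wild type (WT) or knockout (KO) for the circular RNA ciRS-7 (Cdr1as), known for its many binding sites for miR-7, and there were 5 biological replicates in each of the 4 groups. All 20 samples, wild type included, carry the strain label C57BL/6N-Cdr1asem1Nikr, so the wild type is named by its genotype label only. The features are mature miRNAs, so the ciRS-7 deletion itself was not checked here.

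In each cluster a single primary transcript is cut into 3 hairpins, and each hairpin can give a mature strand from either arm. The 3p strands of these hairpins are the guides, which Argonaute loads and which pair with messenger RNAs through the seed, while most of the 5p strands are short-lived passengers. miR-23a and miR-27a are known for repressing pro-apoptotic genes in injured neurons, miR-24 for restraining pro-apoptotic genes in heart muscle, and miR-23 and miR-27 for promoting vessel growth in endothelium. miRNAs of both clusters have also been listed among those that low oxygen raises in tumour cells.

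The mature sequences show which members share a seed and which can be told apart from their paralog. Those below are from RefSeq on GRCm38.p6 (mm10), with the seed, bases 2 to 8, in capitals, and 9 of the 10 members were matched by name. miR-23b-3p was not matched and is named only.
miR-23a-3p: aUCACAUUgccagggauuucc
miR-27a-3p: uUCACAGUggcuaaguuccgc
miR-27b-3p: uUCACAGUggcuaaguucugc
miR-24-3p: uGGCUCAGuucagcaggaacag
miR-27a-5p: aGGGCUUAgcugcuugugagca
miR-27b-5p: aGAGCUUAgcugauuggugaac
miR-24-1-5p: gUGCCUACugagcugauaucagu
miR-24-2-5p: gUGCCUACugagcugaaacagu
miR-23b-5p: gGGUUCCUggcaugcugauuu
miR-27a-3p and miR-27b-3p share the seed UCACAGU, which no other feature of the tables with a sequence in the reference carried. They differ at 1 of 21 bases, C19U, counted from 1 at the 5′ end of miR-27a-3p. The miR-27a-5p and miR-27b-5p strands of the same hairpins differ at 8 of 22 bases, among them G3A in the seed. They were compared position by position without gaps, a count that a single inserted base would raise. miR-24-1-5p and miR-24-2-5p share the seed UGCCUAC and their first 16 bases. The seed of miR-24-3p, GGCUCAG, was also carried by miR-5124b, miR-6410 and miR-6413. How the authors divided reads between near-identical forms is not given in the sources used here, so the levels of miR-27a-3p against miR-27b-3p and of miR-23a-3p against miR-23b-3p are uncertain to that extent.

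On GRCm38 with GENCODE M21, the miR-23a cluster lies at chr8:84208518-84208921, 404 bases on the + strand, in the order Mir23a, Mir27a, Mir24-2. Mir24-2 overlaps an exon of the lincRNA Gm26532. The miR-23b cluster lies at chr13:63300484-63301275, 792 bases on the + strand, in the order Mir23b, Mir27b, Mir24-1, within the protein-coding gene 2010111I01Rik. There Mir23b is intronic, Mir27b and Mir24-1 overlap annotated exons, and the whole cluster is antisense to an intron of Fancc. miR-24-3p is encoded in both clusters, at chr8:84208875-84208896 and chr13:63301251-63301272, so its level is a sum over both loci.

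**Figure D1:**
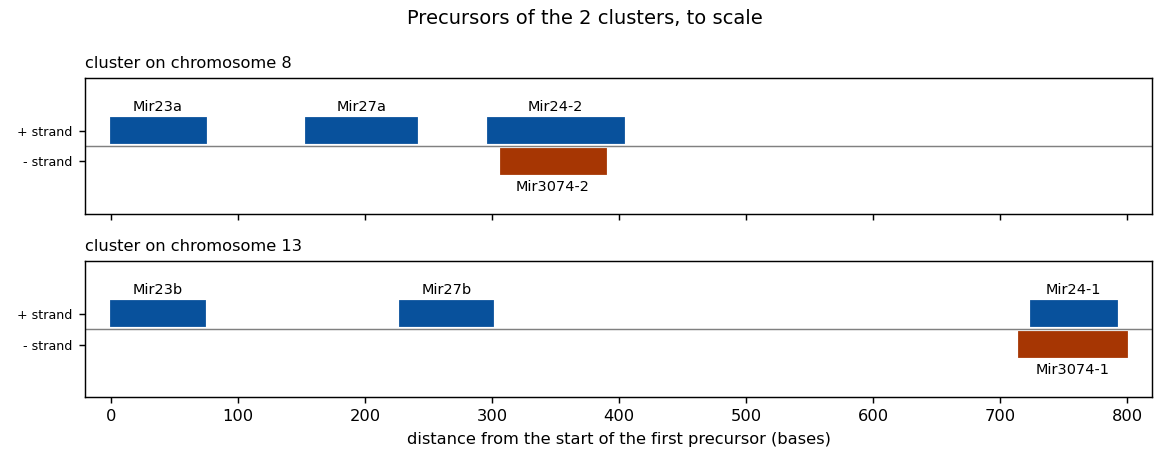
Positions of the precursors in both clusters, in bases from the start of Mir23a (top) or Mir23b (bottom), with + strand precursors above the line and - strand precursors below. Mir3074-2 and Mir3074-1 lie antisense to Mir24-2 and Mir24-1, and the clusters span 404 and 792 bases.

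The Mir27a hairpin gives both miR-27a-3p and miR-27a-5p, whose ratio changed after OGD in both genotypes, and its paralog Mir27b is set beside it, with both mature arms in capitals. Mir27a is at chr8:84208672-84208758 and Mir27b at chr13:63300712-63300784, both on the + strand.
Mir27a: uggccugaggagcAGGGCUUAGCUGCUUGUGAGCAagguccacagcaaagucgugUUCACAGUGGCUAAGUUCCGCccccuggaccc
Mir27b: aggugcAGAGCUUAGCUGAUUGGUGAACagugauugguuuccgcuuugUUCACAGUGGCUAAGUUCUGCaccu
The first capital run of each is the 5p strand and the second the 3p strand.

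The deposited values were on a power scale, and whole reads were recovered from them. Levels are given as CPM, reads scaled to the size of each library by the authors' factors, and changes as log2 differences of CPM + 0.5, which understates the change of rare forms. The library totals were 2492065 to 9117862 reads in normoxic WT, 1160582 to 4374002 in OGD WT, 5884616 to 12477032 in normoxic KO and 1811589 to 3119212 in OGD KO. OGD libraries were thus shallower, and 3 reads corresponded to between 0.249 and 2.55 CPM. On the first principal component, 83.0% of the variance over 423 features, normoxic WT library 5 lay at -0.88, while the other 4 of its group lay between -14.46 and -13.09 and the OGD WT libraries between 8.95 and 15.05. Values without that library are given where they matter. The summed neuronal markers (miR-124-3p, miR-128-3p, miR-138-5p, miR-218-5p and miR-9-5p) took 292313 to 389297 CPM. The endothelial miR-126a forms summed to 269 to 393 CPM, mural miR-143-3p and miR-145a-5p to 29.9 to 64.4, oligodendrocyte miR-219a-2-3p and miR-338-3p to 5.29 to 14.0, erythroid miR-451a and miR-144-3p to 0.557 to 5.10, and myeloid miR-142a and miR-223-3p to 0 to 4.39. In bulk cultures, fewer cells of a type and less RNA per cell cannot be told apart.

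miR-27b-3p was the most abundant member in all 4 groups, followed by miR-24-3p, miR-27a-3p and then miR-23a-3p with miR-23b-3p, whose ranges overlapped in each group. The 10 members together took 0.497% ± 0.035 of reads in normoxic WT, 0.583% ± 0.027 in OGD WT, 0.504% ± 0.034 in normoxic KO and 0.550% ± 0.023 in OGD KO (SD, n = 5). miR-27b-3p alone made up 69.6% to 70.9% of member reads as group means, and the 3p forms 98.8% to 99.1%. Among all features miR-27b-3p ranked 34 to 35 by mean CPM, miR-24-3p ranked 69 to 82, and the rarest member, miR-23b-5p, ranked 660 to 1022. The ranges of neighbouring 3p levels did not overlap within any group, except for miR-23a-3p and miR-23b-3p. miR-24-2-5p, at group means of 39.4 to 46.0 CPM, was the most abundant 5p form in each group.

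After OGD, 3 guide strands rose in both genotypes: miR-23a-3p (2.01-fold in WT and 1.97-fold in KO, as ratios of mean CPM), miR-23b-3p (1.86-fold and 1.69-fold) and miR-27a-3p (1.51-fold and 1.39-fold). A passenger strand, miR-27a-5p, fell in both. These calls depended on the scaling, except for miR-23a-3p and miR-27a-5p. With libraries centred on their median, miR-27a-3p passed in neither genotype and stood at -0.041 in KO, and miR-23b-3p did not pass in KO. Under quantile normalization miR-23b-3p passed in neither genotype. miR-27b-3p and miR-24-3p, the 2 most abundant members, did not pass the test in either genotype. With centred libraries both passed as lower in both genotypes, and under quantile normalization miR-24-3p passed as lower in KO. In WT, 4 of 10 members passed limma at an adjusted p under 0.05 (3 higher and 1 lower), against 23.1% of all 1478 features (18.7% higher and 4.4% lower). In KO, the same 4 members passed, against 24.5% of 1479 features (18.8% higher and 5.75% lower). The split of the members called inverted with centred libraries, to 2 higher and 4 lower in WT and 1 higher and 6 lower in KO, and it was 2 higher and 3 lower in WT and 2 higher and 5 lower in KO under quantile normalization. Over all features the calls were 108 higher and 265 lower of 1478 (WT) and 112 and 324 of 1479 (KO) with centred libraries, and 141 and 191 (WT) and 141 and 186 (KO) under quantile normalization. Of the more abundant features, those whose log2(CPM + 0.5) averaged 3 or more, 47.3% passed in WT and 53.6% in KO. The median change of the 10 members was 0.07 in WT and 0.01 in KO, beside 0.32 and 0.24 over all features, and that of the 5 3p forms was 0.60 and 0.47.

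miR-23a-3p, first in its cluster, stood at 84.2, 63.4, 79.2, 77.5 and 68.8 CPM in normoxic WT libraries 1 to 5 and at 158.5, 125.3, 144.4, 161.3 and 160.6 CPM in OGD WT. In KO it stood at 90.2, 75.3, 87.1, 76.8 and 71.8 CPM in normoxia and 174.3, 140.0, 196.3, 136.1 and 145.4 CPM after OGD. Every OGD library lay above every normoxic library of its genotype. The mean went from 74.6 ± 8.39 to 150 ± 15.4 CPM in WT, a 2.01-fold ratio of means, and from 80.3 ± 7.98 to 158 ± 25.9 CPM in KO, a 1.97-fold ratio (SD, n = 5). The log2 change was 1.00 (SE 0.13, limma adjusted p = 1.0e-05) in WT and 0.97 (SE 0.12, adjusted p = 1.1e-05) in KO.

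miR-23b-3p, its counterpart in the miR-23b cluster, stood at 87.1, 71.0, 87.8, 79.7 and 72.2 CPM in normoxic WT and 143.0, 122.1, 159.7, 155.8 and 160.1 CPM in OGD WT. In KO it stood at 88.4, 76.6, 83.5, 79.3 and 75.2 CPM in normoxia and 143.4, 121.1, 140.0, 133.7 and 144.9 CPM after OGD. Again no OGD library overlapped the normoxic ones. The log2 change was 0.89 (SE 0.13, limma adjusted p = 3.1e-05) in WT and 0.76 (SE 0.095, adjusted p = 1.5e-05) in KO, with ratios of means of 1.86 and 1.69. The 23a-3p to 23b-3p ratio within a library did not pass the test in either genotype (log2 change 0.11, adjusted p = 0.174 in WT, and 0.21, adjusted p = 0.150 in KO, limma).

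miR-27a-3p stood at 213.6, 185.1, 210.5, 182.9 and 203.6 CPM in normoxic WT and at 293.9, 281.6, 314.3, 286.5 and 329.8 CPM after OGD. In KO it stood at 217.9, 190.4, 186.0, 189.2 and 198.4 CPM in normoxia and at 248.7, 253.8, 280.8, 276.0 and 302.0 CPM after OGD. The groups did not overlap in either genotype. The log2 change was 0.60 (SE 0.11, limma adjusted p = 3.0e-04) in WT and 0.47 (SE 0.088, adjusted p = 6.7e-04) in KO, with ratios of means of 1.51 and 1.39. Thus 3 members had OGD groups wholly above normoxia in each genotype, against 13.5% of all features in WT and 15.3% in KO (27.3% and 33.6% of the more abundant features).

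miR-27b-3p, which differs from miR-27a-3p by the single base C19U, ranged from 2667 to 4039 CPM in normoxic WT (median 3489) and from 3775 to 4420 CPM in OGD WT (median 4066). In KO it ranged from 3106 to 3851 CPM in normoxia (median 3474) and from 3764 to 4072 CPM after OGD (median 3902). The groups overlapped in both genotypes, and the lowest value, 2667 CPM, was that of normoxic WT library 5. The log2 change was 0.23 (95% interval -0.00050 to 0.46, limma adjusted p = 0.147) in WT and 0.15 (-0.014 to 0.31, adjusted p = 0.185) in KO. Without that library the WT value was 0.13 (adjusted p = 0.303).

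miR-24-3p, the guide made from both clusters, stood at 1124, 1096, 1015, 1133 and 1128 CPM in normoxic WT and 1140, 1019, 1013, 1168 and 1145 CPM after OGD. In KO it stood at 1195, 976, 1079, 1010 and 1016 CPM in normoxia and 960, 1013, 979, 975 and 972 CPM after OGD. The groups overlapped in both genotypes. The log2 change was -0.0042 (95% interval -0.19 to 0.19, limma adjusted p = 0.975) in WT and -0.10 (-0.26 to 0.056, adjusted p = 0.357) in KO, so changes as large as that of miR-23a-3p lay outside both intervals.

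**Figure D2:**
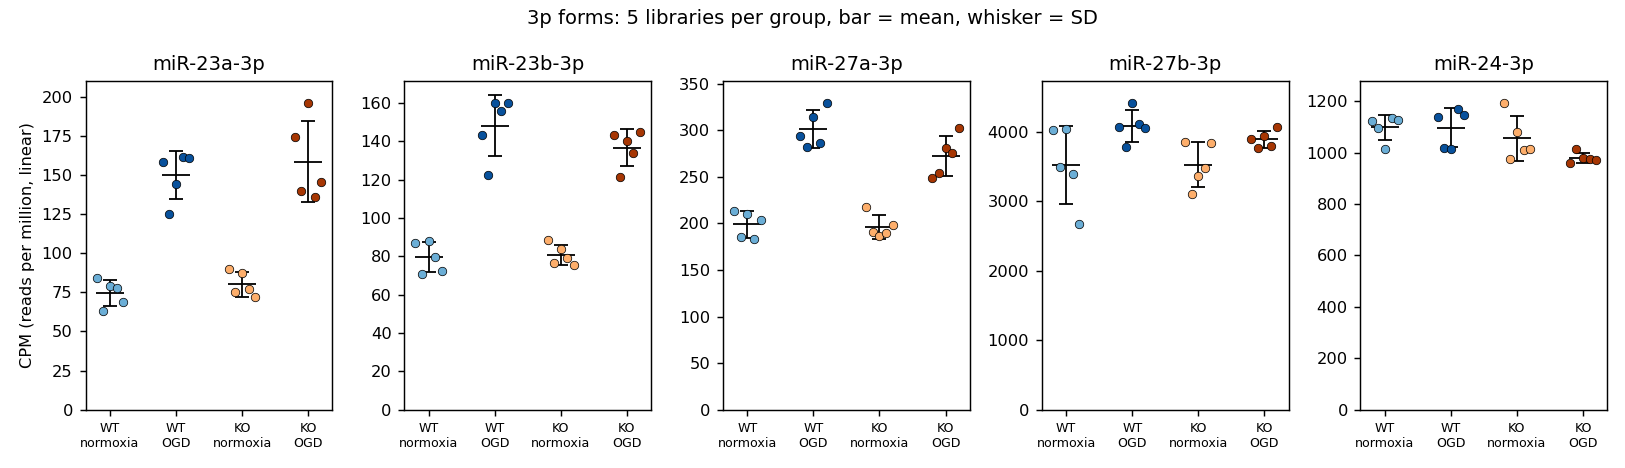
CPM (linear axis from 0) of the 5 3p forms in each library of the 4 groups, with the mean (bar) and SD (whisker). The OGD libraries of miR-23a-3p, miR-23b-3p and miR-27a-3p lie above all normoxic libraries of the same genotype, while those of miR-27b-3p and miR-24-3p overlap them. With libraries centred on their median, the change of miR-27a-3p in KO turns to -0.041.

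The direction of the more modest changes depended on how libraries were put on one scale. Centring each library on the median of the more abundant features moved the changes down by 0.56 in WT and 0.51 in KO. The calls over all features, 276 higher and 65 lower in WT and 278 and 85 in KO, then were mostly lower. The median change over all features was then -0.24 in WT and -0.27 in KO. On the authors' factors the median change of the more abundant features was 0.22 in WT and 0.20 in KO, less than the centring shift. Relative to that shift, miR-23a-3p was still higher in both genotypes (0.44, adjusted p = 0.011 in WT, and 0.46, adjusted p = 0.012 in KO, limma). miR-23b-3p was at 0.33 (adjusted p = 0.045) in WT and 0.25 (adjusted p = 0.108) in KO. miR-27a-3p was at 0.035 (adjusted p = 0.854) in WT and turned to -0.041 (adjusted p = 0.798) in KO. miR-27b-3p turned from above 0 to -0.33 (adjusted p = 0.028) and -0.36 (adjusted p = 0.0066), and miR-24-3p stood at -0.57 and -0.61, which passed in both. Under quantile normalization miR-23a-3p was at 0.47 and 0.54 and miR-27a-3p at 0.35 and 0.25, which all passed, while miR-23b-3p at 0.31 (adjusted p = 0.053) and 0.28 (adjusted p = 0.058) did not. Centring moves all changes of a comparison by the same amount and so leaves their order as it was. Under quantile normalization the order of the 5 guides was the same in KO, and in WT miR-23b-3p and miR-27a-3p changed places.

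**Figure D3:**
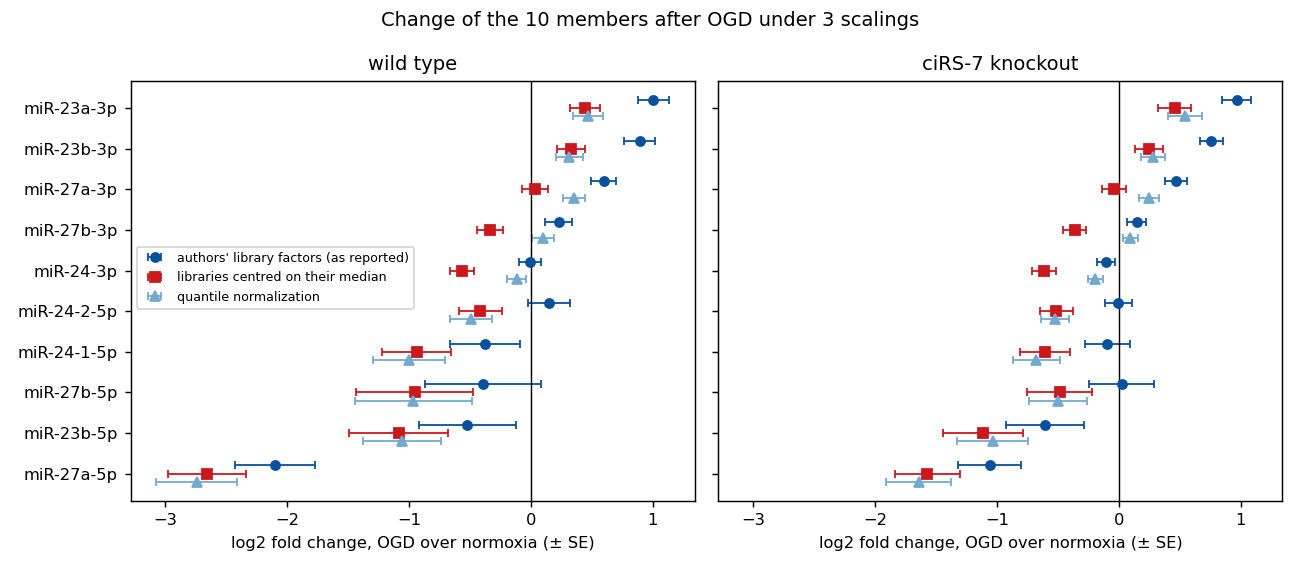
Log2 fold change after OGD (± SE) of the 10 members in WT (left) and KO (right) on the authors' library factors, with libraries centred on their median, and after quantile normalization. miR-23a-3p lies above 0 and miR-27a-5p below 0 under all 3, whereas miR-27b-3p lies above 0 under the authors' factors and at -0.33 (WT) and -0.36 (KO) with centred libraries.

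Ratios within a library do not depend on that scaling, and they set members of 1 cluster against each other. The ratio of miR-23a-3p to miR-24-3p reads was 0.058 to 0.078 in normoxic WT and 0.123 to 0.143 after OGD, and 0.071 to 0.081 and then 0.138 to 0.200 in KO. The ratio of miR-23b-3p to miR-27b-3p reads was 0.020 to 0.027 and then 0.032 to 0.040 in WT, and 0.020 to 0.025 and then 0.032 to 0.037 in KO. The ratio of miR-23a-3p to miR-27a-3p was 0.338 to 0.424 and then 0.445 to 0.563 in WT, and 0.362 to 0.468 and then 0.482 to 0.701 in KO. These 3 ratios each set miR-23a-3p or miR-23b-3p over a form with a smaller change, they were not tested and have no share over all such ratios beside them, and in the first of them miR-24-3p sums both clusters. The ratios of miR-23a-3p to miR-23b-3p (0.893 to 0.972 and then 0.904 to 1.11 in WT, 0.954 to 1.04 and then 1.00 to 1.40 in KO) and of miR-24-3p to miR-24-2-5p overlapped between conditions in both genotypes.

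miR-27a-3p was also compared with its paralog miR-27b-3p. Their ratio was 0.053, 0.053, 0.052, 0.054 and 0.076 in normoxic WT and 0.072, 0.075, 0.071, 0.070 and 0.081 after OGD, where the 0.076 of normoxic library 5 lay within the OGD range. In KO it was 0.052 to 0.061 in normoxia and 0.064 to 0.074 after OGD, without overlap. The share of all paralog ratios lying apart was not counted. The log2 change of the ratio was 0.37 (SE 0.11, limma adjusted p = 0.042) in WT and 0.32 (SE 0.060, adjusted p = 0.0063) in KO. Of the 3 paralog ratios of members, 2 passed in each genotype, beside 24% of 75 such ratios in WT (13.3% higher and 10.7% lower) and 22.7% in KO (13.3% higher and 9.33% lower). Without normoxic WT library 5 the WT change was 0.47 (adjusted p = 7.6e-04), while leaving out any of the other 9 WT libraries ended the call (adjusted p up to 0.087). At equal depth it was lost in both genotypes (adjusted p = 0.129 in WT and 0.093 in KO).

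The strongest change of a member was in the passenger strand miR-27a-5p. It stood at 8.08, 7.62, 6.07, 8.50 and 11.7 CPM in normoxic WT, from 31 to 68 reads, and at 1.23, 0.80, 0.85, 2.78 and 3.01 CPM after OGD, from 5, 2, 1, 4 and 6 reads. In KO it stood at 7.57, 7.62, 6.99, 7.10 and 7.90 CPM in normoxia, from 41 to 91 reads, and at 3.25, 2.58, 7.18, 2.78 and 2.23 CPM after OGD, from 10, 6, 18, 8 and 4 reads. The WT groups did not overlap, which was so for 2.57% of all features in the lower direction (8% of the more abundant). In KO, OGD library 3 lay within the normoxic range and the other 4 lay below it, and 3.79% of all features (11.2% of the more abundant) had KO groups apart in the lower direction. Pooled over libraries, the OGD level of miR-27a-5p was 0.206 times the normoxic level in WT (18 against 254 reads, exact 95% interval 0.120 to 0.332) and 0.490 times in KO (46 against 345 reads, 0.352 to 0.668). These intervals cover counting error only. The log2 change was -2.10 (SE 0.33, limma adjusted p = 8.4e-05) in WT and -1.06 (SE 0.26, adjusted p = 0.0054) in KO, and -1.31 in KO without OGD library 3. It passed under every alternative in which it was tested, with adjusted p up to 0.0074 in WT and 0.031 in KO.

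The arms of the Mir27a hairpin therefore moved apart. The ratio of miR-27a-3p to miR-27a-5p reads was 26.4, 24.3, 34.7, 21.5 and 17.4 in normoxic WT and 239.2, 350.5, 370.0, 103.0 and 109.5 after OGD. In KO it was 25.0 to 28.8 in normoxia and 76.5, 98.5, 39.1, 99.4 and 135.5 after OGD. Neither genotype showed overlap between the conditions, though the share of all arm ratios lying apart in this way was not counted. The log2 change of the ratio was 2.69 (SE 0.34, limma adjusted p = 2.4e-04) in WT and 1.53 (SE 0.27, adjusted p = 0.0022) in KO. Of the 5 arm ratios of members, 2 passed in each genotype, beside 17% of 540 arm ratios in WT (7.78% higher and 9.26% lower) and 20.1% of 541 in KO (8.87% higher and 11.3% lower).

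The other arm ratio that passed was that of Mir23b, with a log2 change of 1.42 (SE 0.40, limma adjusted p = 0.033) in WT and 1.36 (SE 0.27, adjusted p = 0.0039) in KO. It rests on few reads, since miR-23b-5p had 3 to 7 reads per library in normoxic WT and 1, 1, 2, 0 and 0 after OGD, and 7 to 10 in normoxic KO and 4, 0, 1, 1 and 1 after OGD. Pooled, the level of miR-23b-5p after OGD was 0.553 times the normoxic one in WT (exact 95% interval 0.138 to 1.64) and 0.612 times in KO (0.232 to 1.38); both intervals span equal levels, cover counting error only and hold for the authors' library factors. The log2 change of miR-23b-5p was -0.52 in WT and -0.60 in KO (limma adjusted p = 0.376 and 0.195). With 1 library left out it ranged from -0.88 to -0.35 in WT and from -0.84 to -0.38 in KO. It passed in KO with centred libraries and in both genotypes under quantile normalization. With 1 of the 10 libraries left out, the WT arm ratio passed only without OGD library 2 or 3. Otherwise its adjusted p reached 0.072 (limma). The WT ratio also did not pass at equal depth (adjusted p = 0.383), with a pseudocount of 0.1 or with the replicate block.

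The arm ratios of Mir27b, Mir24-1 and Mir24-2 did not pass in either genotype. miR-27b-5p had 2 to 22 reads per library in normoxic WT and 0 to 5 after OGD, at means of 1.83 ± 0.835 and 1.54 ± 1.30 CPM, and 1.89 ± 0.368 and 1.95 ± 0.544 CPM in KO (SD, n = 5). miR-24-1-5p went from 5.91 ± 1.59 to 4.54 ± 1.72 CPM in WT and from 6.01 ± 1.02 to 5.56 ± 0.548 CPM in KO. miR-24-2-5p went from 41.1 ± 6.83 to 46.0 ± 10.3 CPM in WT and from 39.5 ± 2.74 to 39.4 ± 3.65 CPM in KO. The groups of these 3 forms overlapped throughout. Their log2 changes were -0.39, -0.38 and 0.15 in WT and 0.023, -0.094 and -0.0030 in KO (limma adjusted p from 0.375 to 0.991). With 1 library left out, miR-27b-5p ranged from -0.71 to 0.041 in WT, where it lay above 0 only without OGD library 3. In KO it ranged from -0.089 to 0.13. miR-24-1-5p ranged from -0.54 to -0.21 in WT and from -0.15 to -0.021 in KO. miR-24-2-5p ranged from 0.053 to 0.24 in WT and from -0.046 to 0.045 in KO. With centred libraries all 3 lay below 0 in both genotypes, from -0.96 to -0.41. There miR-24-1-5p passed in both (limma adjusted p = 0.019 and 0.032) and miR-24-2-5p in KO (adjusted p = 0.0062). Under quantile normalization miR-24-1-5p again passed as lower in both genotypes and miR-24-2-5p in KO. Against miR-27b-5p, the ratio of miR-27a-5p fell by 1.70 (limma adjusted p = 0.048) in WT and by 1.08 (adjusted p = 0.035) in KO on the log2 scale. With 1 library left out it passed only without OGD library 3 in WT, and only without OGD library 3 or 5 in KO (adjusted p up to 0.098 and 0.082 otherwise). At equal depth it passed in neither genotype (adjusted p = 0.155 in WT and 0.394 in KO). In KO it also did not pass with the replicate block or with all 20 libraries in one fit.

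**Figure D4:**
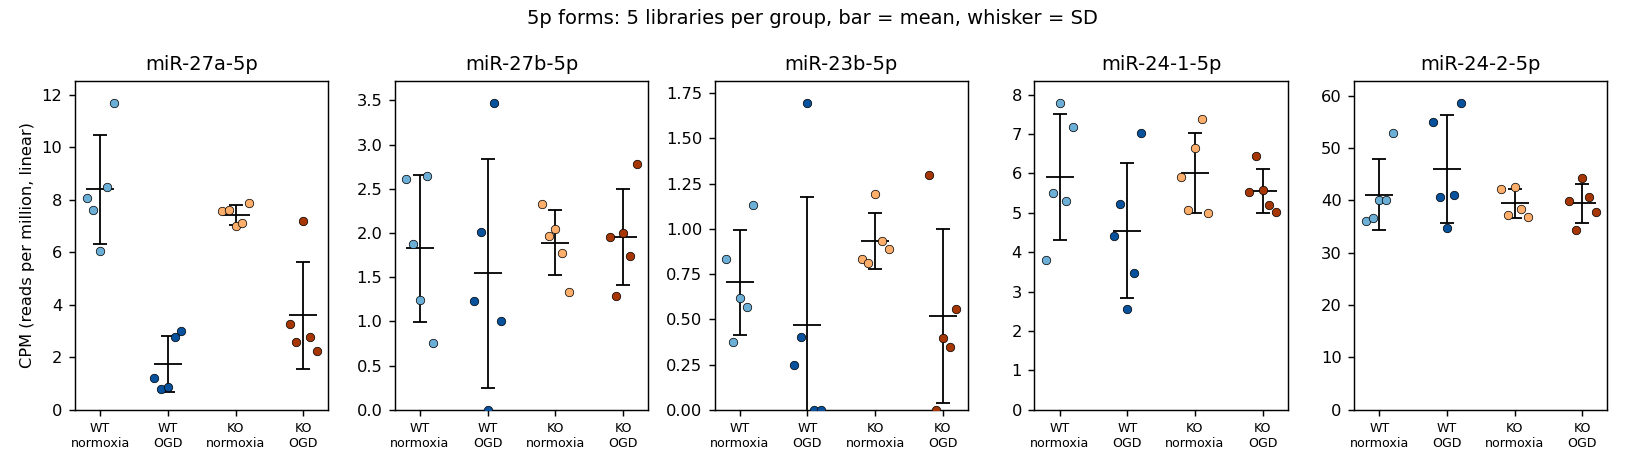
CPM (linear axis from 0) of the 5 5p forms in each library, with the mean (bar) and SD (whisker). miR-27a-5p is at 0.80 to 3.01 CPM in OGD WT against 6.07 to 11.7 CPM in normoxic WT, and the other 5p forms overlap between conditions.

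**Figure D5:**
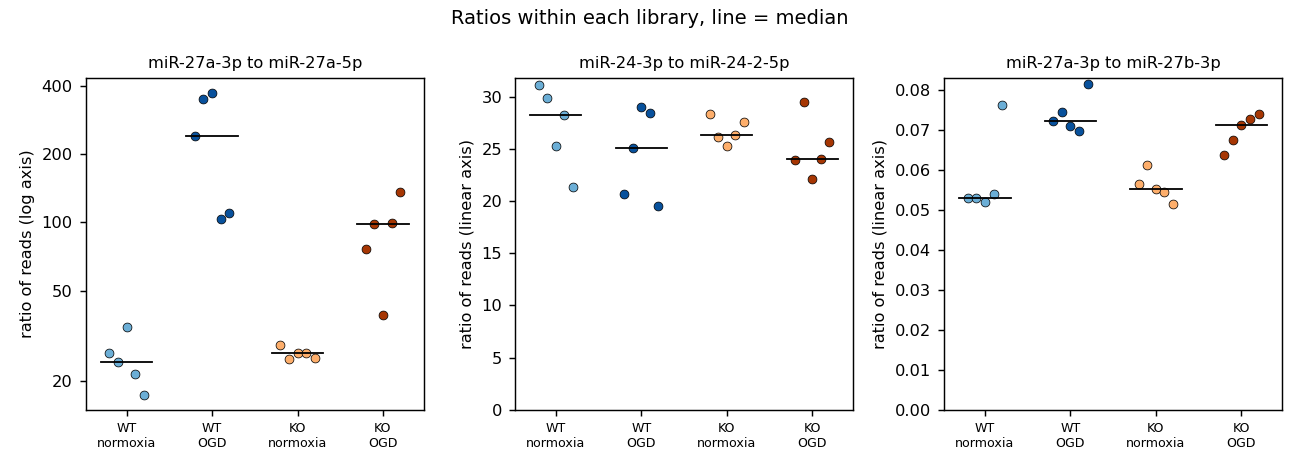
Ratios of reads within each library, with the median as a line: miR-27a-3p to miR-27a-5p (log axis), miR-24-3p to miR-24-2-5p and miR-27a-3p to miR-27b-3p (linear axes from 0). The first is 17.4 to 34.7 in normoxic WT and 103 to 370 in OGD WT, while the second overlaps between conditions.

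The genotypes were compared at each condition, and their OGD responses with an interaction term over all 20 libraries. None of the 10 members passed in normoxia, after OGD or in the interaction, where 0% of 1481 features passed in each case. An unadjusted limma p under 0.05 was found for 47, 108 and 74 features in normoxia, after OGD and in the interaction. Without any difference, a share of about 0.05 of all features would fall under that threshold. In no member did the KO and WT groups lie apart, which was so for 0.203% of all features in the higher and 0.338% in the lower direction in normoxia, and for 0.405% and 0.54% after OGD. In normoxia the KO minus WT difference of miR-23a-3p was 0.11 (95% interval -0.12 to 0.34) and that of miR-27a-3p was -0.020 (-0.20 to 0.16). After OGD the differences were 0.070 (-0.19 to 0.33) for miR-23a-3p, -0.15 (-0.36 to 0.071) for miR-27a-3p and -0.16 (-0.35 to 0.024) for miR-24-3p on the log2 scale. With centred libraries these 3 differences were 0.15, -0.065 and -0.079, and none passed. The interaction of miR-23a-3p was -0.037 (95% interval -0.39 to 0.31). Its sign turned with the processing, to 0.033 with centred libraries and to 0.066 under quantile normalization and at equal depth.

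The member with the smallest p after OGD and in the interaction was miR-27a-5p, singled out after its values were seen. Its KO minus WT difference was -0.14 in normoxia and 0.90 after OGD (SE 0.41, limma adjusted p = 0.618). Its interaction was 1.04 (SE 0.42, limma adjusted p = 0.969), so the smaller fall in KO did not pass as a difference between genotypes. Without OGD KO library 3, the interaction was 0.78 (adjusted p = 0.998).

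Other products of the same loci were read as a list of 4, of which 3 were in the tables and 0 passed in either genotype, against 23.1% of all features in WT and 24.5% in KO. With centred libraries miR-3074-5p stood at -0.46 (limma adjusted p = 0.0012) in WT and -0.56 (adjusted p = 3.7e-04) in KO, so that 1 of 3 in WT and 2 of 3 in KO passed as lower, and under quantile normalization 0 and 1 did. miR-3074-5p, made from the strand opposite Mir24, stood at 589 ± 27.8 and 632 ± 55.4 CPM in normoxic and OGD WT and at 565 ± 58.9 and 545 ± 42.4 CPM in KO (SD, n = 5). It is the complement of miR-24-3p over 20 of 22 bases, and its reads were 0.482 to 0.601 times those of miR-24-3p over all 20 libraries. Whether the authors' counting used strand is not given in the sources used here, and without it reads of miR-3074-5p and miR-24-3p cannot be told apart.
miR-3074-5p: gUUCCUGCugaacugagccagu
Its sequence, with the seed in capitals, can be read against that of miR-24-3p above.

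As context, 9 miRNAs described in ischaemic neuronal death or survival were taken as a list, chosen with earlier results of these data known. Of these, 7 of 9 passed as higher and 0 as lower in each genotype, against 18.7% and 18.8% of all features as higher in WT and KO (47.3% and 53.6% of the more abundant features passed in either direction), and with a median of 0.61 in WT and 0.56 in KO beside 0.32 and 0.24 over all features. With centred libraries 1 of 9 passed as higher in each genotype, beside 108 of 1478 features in WT and 112 of 1479 in KO, and with quantile normalization 4 of 9, beside 141 features in each. miR-210-3p, a miRNA induced by low oxygen, rose by 2.49 (SE 0.26) in WT and 2.08 (SE 0.27) in KO, and miR-16-5p, of a family that restrains the cell cycle, by 0.72 and 0.76 (limma adjusted p up to 4.2e-05 for both). With centred libraries miR-210-3p was at 1.93 and 1.57 and passed in both genotypes, while miR-16-5p was at 0.16 (adjusted p = 0.354) and 0.25 (adjusted p = 0.080) and passed in neither. Among marker lists, to be read against 18.7% of all features higher and 4.4% lower in WT and 18.8% and 5.75% in KO, 2 neuronal forms of 5 passed as higher and 1 as lower in each genotype, 1 of 2 endothelial forms passed as higher in WT and 0 in KO, and 1 of 2 oligodendrocyte forms passed as higher in KO, and 0 of the mural, myeloid and erythroid forms passed. With centred libraries the neuronal forms came to 1 higher and 2 lower in WT, beside 108 higher and 265 lower of all 1478 features. In KO they came to 1 higher and 3 lower, beside 112 and 324 of 1479. The endothelial forms came to 0 higher and 1 lower in each genotype. In KO, 1 of 2 oligodendrocyte and 1 of 2 erythroid forms also passed as lower with centred libraries. Under quantile normalization 1 of 2 mural forms passed as lower in WT, beside 191 of all 1478 features. The neuronal forms then came to 2 higher and 1 lower in WT and to 2 and 0 in KO, and no form of the other lists passed. Oligodendrocyte markers summed to 5.29 to 11.1 CPM in normoxic and 9.03 to 13.7 CPM in OGD WT, and to 7.28 to 11.4 and 9.97 to 14.0 CPM in KO, and their part in the results was not tested. The summed endothelial markers were 310 to 387 CPM in normoxic and 294 to 381 CPM in OGD WT, and 314 to 393 and 269 to 343 CPM in KO, so the summed level overlapped between conditions.

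The features most like each guide over the 20 libraries, among the 423 more abundant features, were found by Pearson's r of log2(CPM + 0.5), as a description of libraries that share depth and condition. For miR-23b-3p these were miR-130b-3p (r = 0.979, and 0.718 within groups, with each group's mean removed) and miR-331-3p (0.973, and 0.583 within groups). For miR-23a-3p they were miR-130b-3p (0.967, and 0.600 within groups) and miR-500-3p (0.960, and 0.532 within groups). For miR-27a-3p they were miR-8112 (0.953, and 0.528 within groups) and miR-326-3p (0.950, and 0.520 within groups). All 5 of these features had log2 changes of 1.11 or more after OGD in both genotypes, larger than those of the guides. miR-27b-3p was closest to miR-181c-3p (0.832, and 0.840 within groups) and miR-21a-5p (0.818, and 0.752 within groups). miR-24-3p was closest to miR-9b-5p (0.806, and 0.704 within groups) and to the antisense miR-3074-5p (0.696, and 0.608 within groups). Between members, r was 0.967 for miR-23a-3p with miR-23b-3p and 0.957 for miR-23b-3p with miR-27a-3p, but -0.21 for miR-23a-3p with miR-24-3p. Within groups these were 0.736, 0.576 and 0.400.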

How the data were processed

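Small RNA libraries of 20 cultures (5 in each of 4 groups) were used, grouped by their descriptions. The authors deposited 6 tables of a score, one for each pair of groups. The build was mm10 per the submitters' processing notes. The aligner, miRBase release, counting and transformation are not given in the sources used here. Scores reached 35.8 to 37.3, above the ceiling of log2 CPM (19.9). As worked out from the values, each score was CPM raised to a power of 0.106 to 0.118 and divided by it, with each feature's extremes per group limited at the quantiles 0.16 and 0.84. Undoing both gave whole reads (within 0.05) for 100% of values, and 59070 comparisons between tables showed 0 differences. Totals were 1160582 to 12477032 reads. No pair of replicates matched within sampling noise (lowest chi-square per degree of freedom 16.5). The exact intervals of pooled reads cover counting error only, since no molecular identifiers are mentioned, and the limma intervals rest on the spread between libraries.

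The R 4.3.3 package limma 3.58.1, with lmFit and a trended eBayes, was run on log2(CPM + 0.5) over all features of a table, two-sided, with Benjamini-Hochberg adjustment and a threshold of 0.05. Ratios of arms and of paralogs were fitted likewise over all such pairs. The fits were checked on simulated reads. Alternatives covered scaling, pseudocount (0.1 and 2), a filter on low values, voom, deposited scores, equal depth, all 20 libraries in one fit, a replicate block and each library left out. All 10 members are named, plus for each 3p form the 2 features of highest correlation, other products of the loci, an ischaemia list and marker lists. Members and lists were chosen with earlier results of these data known.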

Additional observations from a re-analysis of the deposited data

Results flagged for a closer look

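In 40 sets of 5 libraries (10 members in 4 groups), 3 had 1 library far from the other 4, and chance alone flags about 1 in 20 such sets. miR-27a-5p stood at 7.18 CPM (18 reads) in OGD KO library 3, against 2.23 to 3.25 CPM in the others. miR-24-2-5p stood at 52.9 CPM (140 reads) in normoxic WT library 5, the library that also lay apart on the first principal component, against 36.0 to 40.1 CPM in the others. miR-23b-5p stood at 1.70 CPM in OGD WT library 3, the shallowest library, from 2 reads, against 0 to 0.402 CPM in the others.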

How the results depend on the processing

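Depth limits the 5p forms most: miR-23b-5p and miR-27b-5p had 0 to 5 reads per library after OGD in WT. The rise of miR-23a-3p and the fall of miR-27a-5p kept direction and call in both genotypes in every alternative tried, including each library left out (the filter on low values removes miR-27a-5p). The count of members called, 4 in each genotype, became 7 in KO with centred libraries and with quantile normalization (6 and 5 in WT), where each member added to the calls was lower, and 7 in WT and 7 in KO for the replicate block with centred libraries. With the deposited scores, 1 member passed in KO against WT after OGD (miR-24-3p) where 0 did otherwise. Arm ratios called in WT, 2, became 1 with a pseudocount of 0.1, at equal depth and with the replicate block, and 0 with the filter, which also left 0 of 2 in KO because the 5p forms drop out. Paralog ratios called in WT, 2, became 1 with a pseudocount of 0.1 and with the filter, and 0 at equal depth, and in KO, 2, became 1 with the filter, with all 20 libraries in one fit and with the replicate block (the ratio of miR-27a-5p to miR-27b-5p was lost, adjusted p = 0.0997, limma), and 0 at equal depth. With 1 library left out, members called ranged from 4 to 4 in WT and 4 to 5 in KO (miR-23b-5p passed without OGD KO library 1), arm ratios from 1 to 2 in WT and 2 to 2 in KO, paralog ratios from 0 to 1 in WT and 1 to 2 in KO, and genotype and interaction calls stayed at 0. Directions turned with centred libraries for miR-27b-3p, to -0.33 in WT and -0.36 in KO, and for miR-27a-3p in KO, to -0.041, with the same values under the replicate block with centred libraries. Uncalled changes turned for miR-24-2-5p in WT, to -0.41 with centred libraries (adjusted p = 0.034, limma, with the replicate block) and -0.49 with quantile normalization, and for miR-27b-5p in KO, to -0.49 and -0.50. Over all features, voom called 693 in WT and 784 in KO, against 341 and 363. Where 0 features differed between genotypes, the deposited scores called 33 in normoxia and 72 after OGD, the fit of all 20 libraries called 4 after OGD, leaving out OGD KO library 5 called 22 after OGD, leaving out OGD WT library 1 called 1 in the interaction, and voom called 0. The cause of these shifts was not tested, other than where the alternative removes features. The deviations of same-numbered libraries had correlations from -0.18 to 0.66 in WT and from -0.20 to 0.48 in KO. In WT 4 of 5 libraries correlated best with their own number, and in KO 3 of 5. Pairing was not tested, and the main fits did not read the numbers as pairs. The replicate block without centring changed no call of a single member, but it changed the ratio calls given above.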
